A study of Homo sapiens with 4 samples.

Results

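The chaperone genes of K562 cells, an established line from human chronic myeloid leukemia, were compared between cells transfected with RUNX1::ERG and cells transfected with the empty vector. A chaperone gene was any protein-coding gene whose symbol begins with HSPA, HSPB, HSPD, HSPE, HSPH, HSP90 or DNAJ, together with CCT2 to CCT8 and TCP1, and 83 such genes stood among the 25702 genes counted. They comprised 3 HSP90 genes, 15 HSP70 and HSP110 genes (HSPA and HSPH), 7 small heat shock protein genes (HSPB), HSPD1 and HSPE1, 9 CCT genes, 4 DNAJA, 12 DNAJB and 28 DNAJC genes, and 3 genes (HSPBP1, HSPBAP1 and the readthrough DNAJC25-GNG10) that carry a matching symbol without being heat shock proteins in the strict sense. The readthrough gene HSPE1-MOB4 also fits the rule and was not analysed here. All 4 libraries came from K562 cells with no further treatment, nucleofected with the LeGO-iG2 plasmid, which co-expresses GFP. The empty vector group had the plasmid alone and the RUNX1::ERG group had the plasmid carrying the fusion of the transcription factor genes RUNX1 and ERG, with 2 replicates in each group. Poly(A)-enriched RNA was sequenced, no sorting of transfected cells is stated for these libraries, and the model is a transient transfection of one cell line, so the values average transfected and untransfected cells and a change in cell number cannot be told apart from a change in RNA per cell.

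Chaperones bind proteins that are unfolded or partly folded and release them in cycles that are mostly driven by ATP. HSP70 proteins take up short exposed stretches of a client, DNAJ proteins (HSP40) deliver clients and stimulate the ATPase of HSP70, nucleotide exchange factors reopen it, and HSP90 with its cochaperones receives kinases, receptors and other late folding intermediates. The CCT complex, a ring of CCT subunits with TCP1, encloses actin, tubulin and other proteins, HSPD1 and HSPE1 form the corresponding chamber of mitochondria, and small heat shock proteins hold unfolded proteins without ATP. Many of these genes are switched on by heat shock factor HSF1 at heat shock elements, those of the endoplasmic reticulum by the unfolded protein response, and fast-growing leukemia cells such as K562 express much of the machinery constitutively.

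The 250 bases before each RefSeq start site of GRCh38.p14 were read for 75 of the 83 genes, 8 having no entry, and 6 of these windows are printed because they belong to the pair of genes that passed the test (HSPB7 and DNAJB2), to HSPA6, which fell just short, to HSPA8 and HSP90AA1, whose replicates differed most among the abundant genes with a heat shock element, and to HSPA5, the endoplasmic reticulum HSP70. Each runs 5′ to 3′ towards the start site on the strand of its gene. Capitals mark a TATA box (TATAAA on either strand) in HSPB7 and DNAJB2, heat shock elements (GAA, NN, TTC, NN and GAA in succession, on either strand) in HSPA6, HSPA8 and HSP90AA1, and an endoplasmic reticulum stress element (CCAAT, 9 unspecified bases and CCACG) in HSPA5.
HSPB7, minus strand of chr1:16018044-16018293: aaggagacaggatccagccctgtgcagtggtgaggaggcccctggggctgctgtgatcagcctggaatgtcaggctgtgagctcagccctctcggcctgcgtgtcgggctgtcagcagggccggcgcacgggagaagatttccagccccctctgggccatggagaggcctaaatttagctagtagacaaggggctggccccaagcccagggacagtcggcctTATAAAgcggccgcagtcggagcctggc
DNAJB2, plus strand of chr2:219279116-219279365: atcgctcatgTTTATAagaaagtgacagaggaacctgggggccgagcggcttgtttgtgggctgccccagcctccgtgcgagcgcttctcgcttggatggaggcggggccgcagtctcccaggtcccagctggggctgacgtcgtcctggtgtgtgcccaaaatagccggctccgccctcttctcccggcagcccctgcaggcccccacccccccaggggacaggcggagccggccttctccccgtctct
HSPA6, plus strand of chr1:161524290-161524539: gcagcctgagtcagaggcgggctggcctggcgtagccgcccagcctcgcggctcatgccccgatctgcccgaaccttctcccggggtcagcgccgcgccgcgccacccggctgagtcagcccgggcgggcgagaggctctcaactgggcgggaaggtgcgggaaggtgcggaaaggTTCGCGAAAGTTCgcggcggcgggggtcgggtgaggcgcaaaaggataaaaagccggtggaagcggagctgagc
HSPA8, minus strand of chr11:123062137-123062386: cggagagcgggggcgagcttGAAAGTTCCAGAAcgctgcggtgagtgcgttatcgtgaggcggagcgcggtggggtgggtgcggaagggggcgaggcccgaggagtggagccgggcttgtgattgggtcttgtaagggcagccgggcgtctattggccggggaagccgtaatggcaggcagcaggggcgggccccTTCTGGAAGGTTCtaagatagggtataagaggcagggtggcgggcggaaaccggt
HSP90AA1, minus strand of chr14:102087045-102087294: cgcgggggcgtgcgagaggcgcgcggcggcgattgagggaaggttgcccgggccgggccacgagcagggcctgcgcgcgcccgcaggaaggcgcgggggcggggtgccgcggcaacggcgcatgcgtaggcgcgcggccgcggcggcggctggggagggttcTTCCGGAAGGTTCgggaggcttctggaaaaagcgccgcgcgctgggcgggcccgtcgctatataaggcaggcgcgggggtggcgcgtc
HSPA5, minus strand of chr9:125241344-125241593: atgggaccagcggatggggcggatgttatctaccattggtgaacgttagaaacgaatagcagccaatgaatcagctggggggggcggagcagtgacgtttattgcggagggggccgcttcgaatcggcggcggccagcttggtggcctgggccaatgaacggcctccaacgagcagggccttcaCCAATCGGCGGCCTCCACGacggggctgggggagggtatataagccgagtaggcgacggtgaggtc
Counted from the start site, the TATA box of HSPB7 began at base -28, whereas that of DNAJB2 lay on the opposite strand at base -240. HSPA8 held heat shock elements at bases -230 and -55, HSPA6 at base -74 and HSP90AA1 at base -88. The heat shock element was present in the windows of 6 chaperone genes (DNAJB6, HSP90AA1, HSP90AB1, HSPA6, HSPA8 and HSPD1), that is in 6.12% of their 98 windows against 0.441% of 35116 windows of all genes, and the endoplasmic reticulum stress element in HSPA5 and HSP90B1 only (0.074% of all windows). A TATA box was present in 12.2% of the chaperone windows and 10.7% of all, a CCAAT box (CCAAT) in 38.8% and 32%, and an E box (CACGTG) in 9.18% and 6.34%. For the factors that make up the fusion, the ETS core CCGGAAGT was present in 7.14% of chaperone windows and 3.42% of all, and the Runt core TGTGGT in 4.08% and 11%. All motifs were sought on both strands, an E box or CCAAT box may lie within a longer element, and a match describes the letters of the window and not the binding of a factor.

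The library totals ran from 59695387 to 82352144 counts, of which the chaperone genes held 1.82% and 2.42% in the empty vector libraries and 1.72% and 2.04% in the RUNX1::ERG libraries. ERG, with 4 counts in each control library, reached 80443 and 27218 counts with the fusion plasmid, so both libraries carried the transgene, at different levels. Counts were expressed relative to the library total after TMM scaling (normalized CPM) and compared with edgeR's quasi-likelihood test across 15394 genes that passed its filter on low counts. A gene was called at a Benjamini-Hochberg adjusted p under 0.05, which gave 560 higher (3.64%) and 177 lower (1.15%) genes, 4.79% in all. All 14 markers of the K562 line were above 1 CPM, and their sum was 12788 to 13484 CPM with the empty vector and 13929 to 15100 CPM with RUNX1::ERG (EPOR and TAL1 rose). The monocyte and granulocyte list summed to 8.67 to 10.98 and 20.9 to 22.5 CPM (LYZ and CD14 rose) and the fibroblast list to 6.19 to 6.35 and 22.1 to 24.8 CPM (COL1A1 rose). The T cell list summed to 34.6 to 36.98 and 25.2 to 27.9 CPM, the B cell list to 1.25 to 2.06 and 1.17 to 1.61 CPM with MS4A1 at 0, and the epithelial list to 161 to 197 and 149 to 154 CPM with KRT14 at 0. The part of these shifts in the results below was not tested.

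With RUNX1::ERG, 2 of the 74 chaperone genes that passed the filter rose, the small heat shock protein gene HSPB7 and the HSP40 gene DNAJB2, and none fell. At an unadjusted p under 0.05, 6 were higher and 3 lower, which is 8.11% and 4.05% of 74 against 10.7% and 7.26% of all genes. DESeq2's Wald test added HSPA6 to the higher genes and limma voom added none, and neither called a chaperone gene lower. The fitted log2 fold change (RUNX1::ERG over empty vector) was below 0 in 43 of 74 chaperone genes and in 50.2% of all genes, with a median of -0.05 against -0.0017. Both RUNX1::ERG libraries lay above both empty vector libraries for 14 genes and below them for 20, that is 18.9% and 27.0% of 74, where all genes gave 25.1% and 22.1%, and 47.2% in either direction. By family, HSP90, CCT, HSPD1 and HSPE1 lay mostly on the low side and the DNAJB genes on the high side.

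HSPB7, a small heat shock protein known mainly from heart and skeletal muscle, gave the largest change. It had 34 and 29 counts in the empty vector libraries and 351 and 172 counts in the RUNX1::ERG libraries, so both fusion libraries were above both controls and the one with more ERG was the higher. Its level rose from 0.488 ± 0.108 to 3.28 ± 1.25 normalized CPM (SD, n = 2 each), a log2 fold change of 2.75 (standard error, SE, 0.42, adjusted p = 0.0045, edgeR). The gene (NCBI gene 27129) lies on the minus strand of chr1:16340523-16346089 in GRCh37. Whether the counting used strand is not stated, so its counts are uncertain wherever another gene shares its span. Without RUNX1::ERG replicate 1, in a fit where the lone fusion library is taken to vary as the control pair does, the log2 fold change of HSPB7 was 2.29 with an adjusted p of 0.053 from edgeR.

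The other small heat shock protein genes showed no common direction. HSPB1 (HSP27), the abundant member, had 25074 and 29263 counts with the empty vector and 47182 and 29105 counts with RUNX1::ERG. Its normalized level was nearly equal in 3 libraries, 416, 415 and 405 CPM, and 560 CPM in RUNX1::ERG replicate 1, giving a log2 fold change of 0.21 (SE 0.17, adjusted p = 0.58, edgeR) with overlapping groups. HSPB3 and HSPB8, singled out after their values were seen, moved apart from each other at low counts. HSPB3, a muscle-enriched member, had 83 and 90 counts against 34 and 63 counts (log2 fold change -1.06, SE 0.48, adjusted p = 0.28, edgeR). HSPB8, a partner of BAG3 in selective autophagy, had 24 and 25 counts against 70 and 39 counts (0.87, SE 0.51, adjusted p = 0.43, edgeR). In both the groups did not overlap, yet neither passed the test. HSPB2, whose sequence is shared with a readthrough transcript and with CRYAB over 82.7% of its 150-base windows, had a log2 fold change of 0.17, and the median of the 7 small heat shock protein genes was 0.17.

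Among the 11 tested DNAJB genes, 10 had a fitted change above 0, with a median of 0.17. In 6 of the 11 (54.5%) both RUNX1::ERG libraries exceeded both controls, against 25.1% of all genes. DNAJB2, an HSP40 protein with ubiquitin interaction motifs that is best known from neurons, had 345 and 411 counts with the empty vector and 1412 and 940 counts with RUNX1::ERG. The control libraries were nearly equal and the fusion libraries were both well above them. The level rose from 5.78 ± 0.0707 to 14.9 ± 2.60 normalized CPM (SD, n = 2 each), a log2 fold change of 1.37 (SE 0.23, adjusted p = 0.0080, edgeR). Without RUNX1::ERG replicate 1 it was 1.18 with an adjusted p of 0.075 from edgeR. DNAJB2 (NCBI gene 3300) lies on the plus strand of chr2:220144064-220151620 in GRCh37, and both of its nearest neighbours rose as well. Neighbouring genes, here and further on, were chosen after their values were seen. TUBA4A, an alpha tubulin gene 1440 bases away, rose from 72.7 to 129 CPM (0.83, SE 0.18, adjusted p = 0.030, edgeR) and PTPRN, 2725 bases away, from 4.21 to 9.89 CPM (1.23, SE 0.24, adjusted p = 0.018, edgeR), while STK16 had a log2 fold change of -0.17.

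DNAJB4, a cytosolic HSP40 of muscle and other tissues, had 29.3 and 29.3 normalized CPM with the empty vector and 39.4 and 44.4 CPM with RUNX1::ERG, a log2 fold change of 0.52 (SE 0.17, adjusted p = 0.13, edgeR). Its groups stood clearly apart, and among its neighbours FUBP1, 65 bases away, had a log2 fold change of -0.07, MIGA1, 99634 bases away, 0.32, and NEXN, an actin-binding protein gene 35279 bases away, rose (1.20, adjusted p = 0.046, edgeR). DNAJB9 (ERdj4), an HSPA5 cofactor of the endoplasmic reticulum, had 18.3 and 16.4 CPM against 22.3 and 22.0 CPM (0.35, SE 0.19, adjusted p = 0.38, edgeR). DNAJB1, the main heat-inducible HSP40, had 129 and 182 CPM with the empty vector and 175 and 158 CPM with RUNX1::ERG. Both fusion libraries of DNAJB1 lay between the control libraries, and its log2 fold change was 0.10 (SE 0.19).

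The HSP70 family lay mostly on the low side, with 8 of 10 tested genes below 0 and a median of -0.15, the others being HSPA12B (0.13, at 1.04 to 1.54 CPM, named after its values were seen) and the heat-inducible member HSPA6. HSPA6 (HSP70B'), a gene that is nearly silent without stress, had 242 and 306 counts with the empty vector and 646 and 549 counts with RUNX1::ERG. On the normalized scale the replicates were close, 4.02 and 4.34 CPM against 7.66 and 7.64 CPM, with no overlap. The log2 fold change was 0.87 (SE 0.25) with an adjusted p of 0.077 from edgeR, and DESeq2's Wald test gave 0.86 with an adjusted p of 0.020. Of its sequence, 15.3% of 150-base windows are shared with HSPA7, a near copy, so some of these counts may belong to either gene.

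HSPA5 (BiP), the HSP70 of the endoplasmic reticulum, had 640 and 790 normalized CPM with the empty vector and 468 and 588 CPM with RUNX1::ERG. Both fusion libraries were below both controls, with a log2 fold change of -0.44 (SE 0.17, unadjusted p = 0.023, adjusted p = 0.19, edgeR). Without empty vector replicate 1 the change was -0.59 with an adjusted p of 0.033, and without empty vector replicate 2 it was -0.28 with an adjusted p of 0.51 (edgeR). HSPA9 (mortalin), the mitochondrial HSP70, had 911 and 846 CPM against 635 and 756 CPM, again without overlap (-0.34, SE 0.14, adjusted p = 0.25, edgeR). HSPA4, an HSP110-type exchange factor, had 286 and 421 CPM against 279 and 351 CPM (-0.17, SE 0.20, adjusted p = 0.75, edgeR), where the groups overlapped.

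HSPA8 (HSC70), the constitutive HSP70 of the cytosol, had the widest spread of the abundant genes. It had 82131 and 247407 counts with the empty vector and 154425 and 196241 counts with RUNX1::ERG, or 1364, 3508, 1832 and 2730 normalized CPM. The empty vector replicates differed 2.57-fold and enclosed both fusion libraries. Its log2 fold change was -0.10 (SE 0.34, adjusted p = 0.93, edgeR), and its sign depended on which control library was kept. Without empty vector replicate 1 it was -0.63 with an adjusted p of 0.0020, and without empty vector replicate 2 it was 0.74 with an adjusted p of 0.00061 (edgeR). HSPH1 (HSP110) repeated the order with 129 and 262 CPM in the controls and 157 and 228 CPM with the fusion, and its log2 fold change was -0.02 (SE 0.29), or -0.45 and 0.58 without empty vector replicate 1 and 2, neither called.

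**Figure D1:**
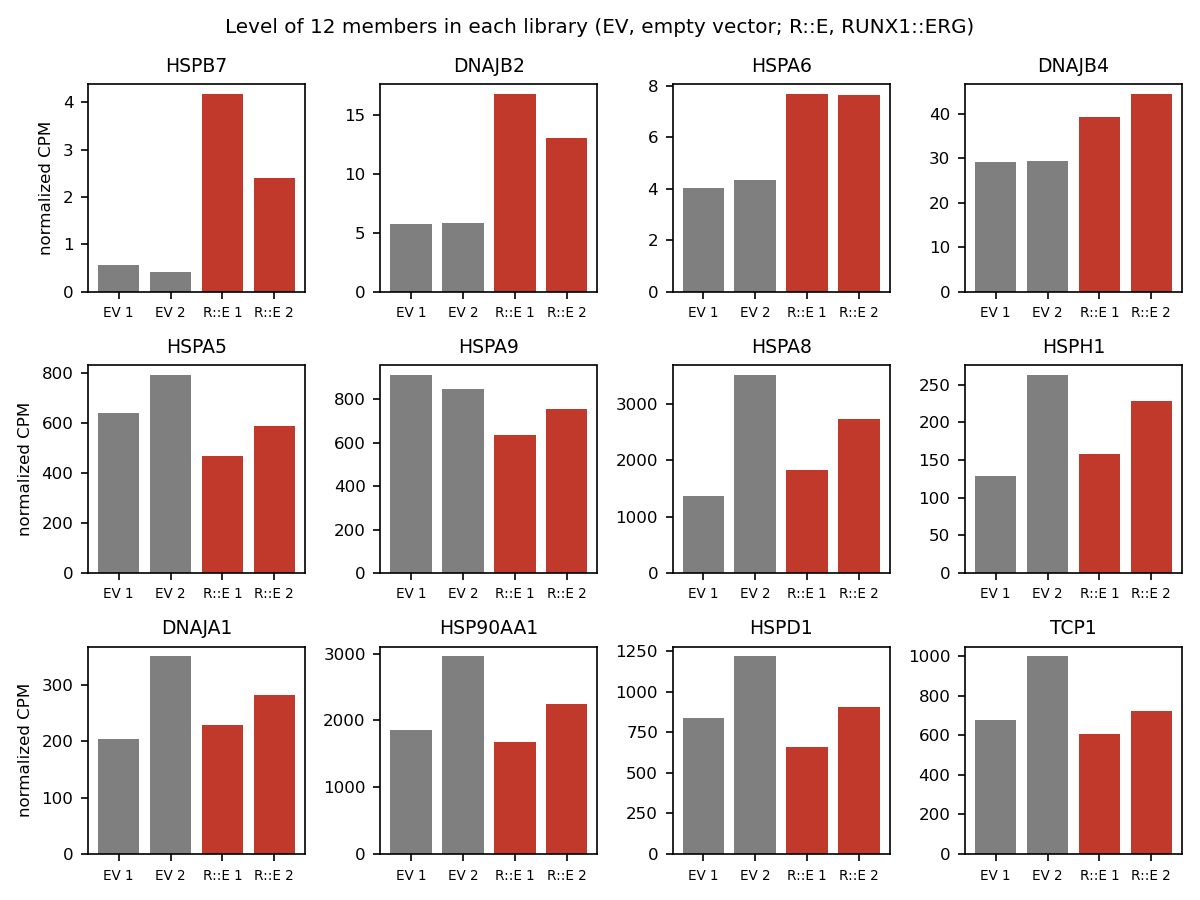
Bars give the normalized CPM (vertical axis, from 0, a separate scale for each gene) of 12 chaperone genes in the empty vector libraries (grey, EV) and the RUNX1::ERG libraries (red, R::E), 1 bar for each library. HSPB7, DNAJB2, HSPA6 and DNAJB4 show both red bars above both grey bars, HSPA5 and HSPA9 both below, and in HSPA8, HSPH1 and DNAJA1 the grey bars enclose the red ones.

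The 3 HSP90 genes had nearly the same fitted change, -0.30 each (SE 0.17 to 0.21), and none passed the test. HSP90AB1, the constitutive cytosolic form, had 2731 and 3815 normalized CPM with the empty vector and 2400 and 2918 CPM with RUNX1::ERG. HSP90AA1, the inducible cytosolic form, had 1859 and 2961 CPM against 1676 and 2249 CPM. HSP90B1 (GRP94), the form of the endoplasmic reticulum, had 652 and 870 CPM against 553 and 686 CPM. All 3 genes had the same order, with RUNX1::ERG replicate 1 lowest, then empty vector replicate 1, RUNX1::ERG replicate 2 and empty vector replicate 2, so that the groups overlapped and each number 2 library was above the number 1 library of its group. The adjusted p values were 0.39, 0.52 and 0.43 in that order of genes (edgeR). Without empty vector replicate 1, HSP90AA1 (-0.60, adjusted p = 0.0049) and HSP90AB1 (-0.52, adjusted p = 0.013) were called lower by edgeR, whereas without empty vector replicate 2 the values were 0.08 and -0.04.

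In mitochondria, HSPD1 (HSP60), which forms the folding chamber, had 837 and 1217 normalized CPM with the empty vector and 660 and 906 CPM with RUNX1::ERG, a log2 fold change of -0.39 (SE 0.20, adjusted p = 0.35, edgeR). The groups overlapped only through RUNX1::ERG replicate 2, which was above empty vector replicate 1. Leaving out empty vector replicate 1 gave -0.64 (adjusted p = 0.0093, edgeR) and leaving out empty vector replicate 2 gave -0.10. HSPE1 (HSP10), the lid of that chamber, had 202 and 247 CPM against 184 and 193 CPM without overlap (-0.26, SE 0.16, adjusted p = 0.46, edgeR). Its transcript shares 10.8% of windows with the readthrough HSPE1-MOB4.

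The CCT subunits had similar fitted values. The 8 abundant subunits had log2 fold changes from -0.34 (CCT3) to -0.17 (CCT6A). In 5 of these 8 (CCT3, CCT4, CCT5, CCT7 and CCT8) both RUNX1::ERG libraries were below both controls, against 28.7% of all genes of at least 100 CPM. No subunit passed the test, with unadjusted p values of 0.062 for CCT3 and 0.067 for CCT5 as the smallest (adjusted p = 0.31 and 0.32, edgeR). CCT3 had 630 and 797 normalized CPM with the empty vector and 516 and 614 CPM with RUNX1::ERG, CCT5 812 and 1009 CPM against 648 and 801 CPM, and TCP1, the subunit that named the complex, 676 and 1000 CPM against 609 and 722 CPM. In CCT3 and CCT5 both fusion libraries were below both controls, while in TCP1 RUNX1::ERG replicate 2 was above empty vector replicate 1 and the control replicates differed by more than the groups. TCP1 was called lower only without empty vector replicate 1 (-0.59, adjusted p = 0.025, edgeR) and was -0.02 without empty vector replicate 2. Counts of CCT5 are uncertain because 50.4% of its windows are shared with an overlapping unnamed gene model, and 13.9% of TCP1 windows are shared with ACAT2 on the other strand.

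Set per kilobase of the main transcript, the 8 abundant subunits lay within a narrow range. With the empty vector the order was CCT7 (481 normalized CPM per kilobase), CCT8 (420), CCT3 (361), TCP1 (356), CCT2 (277), CCT5 (277), CCT6A (247) and CCT4 (207). With RUNX1::ERG it was CCT7 (405), CCT8 (342), CCT3 (286), TCP1 (283), CCT2 (239), CCT5 (220), CCT6A (219) and CCT4 (170), the same order. Neighbours such as CCT3 and TCP1, or CCT2 and CCT5, did not differ beyond their replicate spread. CCT6B, a testis-enriched paralog of CCT6A, stood at 0.287 and 0.337 per kilobase with 29 to 58 counts, and its log2 fold change of 0.24 (SE 0.50) was the one value above 0. On the same per-kilobase scale the highest genes of the whole set with the empty vector were HSP90AB1 (1281), HSPA8 (1076), HSP90AA1 (747) and HSPB1 (535), and with RUNX1::ERG they were 1041, 1007, 608 and 621, so HSPB1 passed HSP90AA1 in the group means, within the spread of the libraries.

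**Figure D2:**
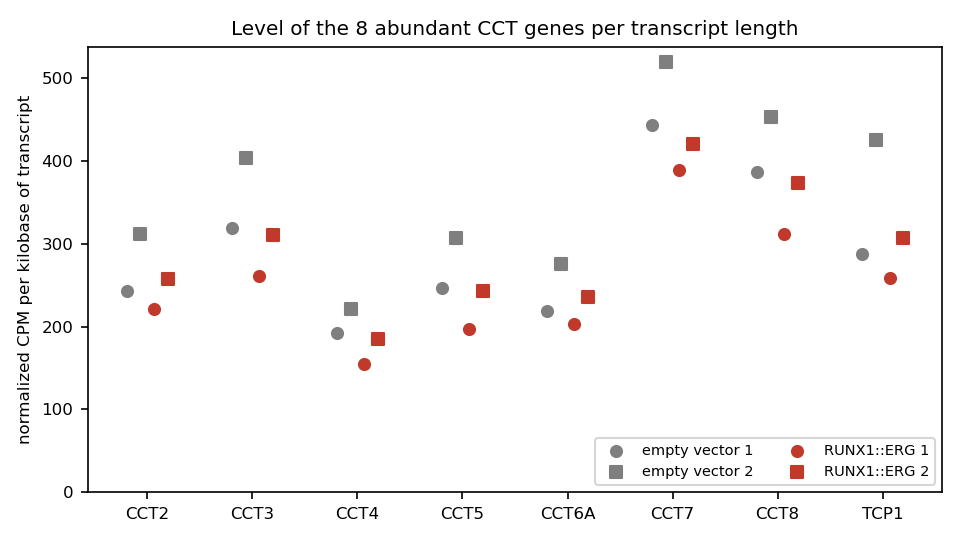
Normalized CPM per kilobase of transcript (vertical axis, from 0) of the 8 abundant CCT genes (horizontal axis) in each library, grey for empty vector and red for RUNX1::ERG, circles for replicate 1 and squares for replicate 2. For each subunit the squares are above the circles of the same colour and RUNX1::ERG replicate 1 is the lowest point, from CCT4 at the bottom to CCT7 at the top.

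DNAJA1, the main cytosolic HSP40 of protein transport and folding, had 204 and 351 normalized CPM with the empty vector and 229 and 283 CPM with RUNX1::ERG. The control libraries enclosed the fusion libraries, as for HSPA8, and the log2 fold change was -0.12 (SE 0.23, adjusted p = 0.86, edgeR), or -0.46 and 0.33 without empty vector replicate 1 and 2. The 4 DNAJA genes had a median of -0.19 with 3 below 0. The 26 tested DNAJC genes, a mixed group with many client-specific functions, divided evenly with 13 below 0 and a median of -0.01.

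Of the DNAJC genes, DNAJC4, a membrane protein assigned to mitochondria, had 27.3 and 22.1 normalized CPM with the empty vector and 44.02 and 32.3 CPM with RUNX1::ERG (log2 fold change 0.63, SE 0.21, adjusted p = 0.13, edgeR). The fusion libraries were both higher, and edgeR called the gene without empty vector replicate 1 (0.79, adjusted p = 0.027) and without RUNX1::ERG replicate 2 (0.82, adjusted p = 0.048). Nearby on chromosome 11, FERMT3, the kindlin gene of blood cells and 6382 bases away, rose from 390 to 689 CPM (0.82, SE 0.15, adjusted p = 0.013, edgeR), while VEGFB, 298 bases away, had a log2 fold change of 0.17. DNAJC1, an endoplasmic reticulum HSP40 that contacts ribosomes, had 113 and 96.0 CPM against 135 and 123 CPM without overlap (0.31, SE 0.16, adjusted p = 0.36, edgeR).

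On the low side, DNAJC12, a cofactor for the folding of aromatic amino acid hydroxylases, had 32.1 and 22.5 normalized CPM with the empty vector and 18.1 and 22.1 CPM with RUNX1::ERG (-0.44, SE 0.22, adjusted p = 0.33, edgeR). The groups were apart by less than the control replicates differed. DNAJC2 (MPP11), a ribosome-associated HSP40, had 100.2 and 114 CPM against 83.5 and 85.6 CPM, where they were clearly apart (-0.34, SE 0.16, adjusted p = 0.29, edgeR). DNAJC3 (p58IPK), the inhibitor of the kinases PERK and PKR, had 32.7 and 39.4 CPM against 30.1 and 40.8 CPM, with the fusion libraries outside the controls on either side (-0.02, SE 0.20). DNAJC28, singled out after its values were seen, had 82 and 84 counts against 193 and 153 counts (0.79, SE 0.35, adjusted p = 0.26, edgeR).

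By compartment, the 10 tested genes with mitochondrial products had a median of -0.22 with 8 below 0, the exceptions being DNAJC4 and DNAJC28. In 5 of the 10 (50%) both fusion libraries were below both controls, against 22.1% of all genes. The 13 tested genes of the endoplasmic reticulum had a median of 0.01, with HSPA5 and HSP90B1 at the low end and DNAJB9 and DNAJC1 at the high end. By abundance, the 30 chaperone genes with a mean of at least 100 CPM had 24 values below 0, where 58.4% of the 2478 genes of that level were below 0, and a median of -0.21 against -0.05. In 11 of the 30 (36.7%) both fusion libraries were below both controls, against 28.7% of all genes of that level. The 19 tested genes under 10 CPM had 13 values above 0 and a median of 0.13 against 0.09 for all such genes.

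The spread between the empty vector replicates was larger than the change with RUNX1::ERG for 41 of 74 chaperone genes, against 51.7% of all genes. Empty vector replicate 2 exceeded replicate 1 in 51 of 74 (68.9%) where all genes gave 47.1%, and in 27 of the 30 genes of at least 100 CPM (90%) where all genes of that level gave 67.8%. It was at least 1.5 times higher in 7 (DNAJA1, DNAJA4, HSP90AA1, HSPA4L, HSPA8, HSPB6 and HSPH1), that is 9.46% of 74 against 5.25% of all genes. In 7 genes (DNAJA1, DNAJA2, DNAJB1, DNAJB6, DNAJB11, HSPA8 and HSPH1) empty vector replicate 1 was the lowest and empty vector replicate 2 the highest of the 4 libraries, against 5.89% of all genes. Across the 74 genes the log2 ratio of the control replicates and that of the fusion replicates had a correlation of 0.47, a description over genes that share the 4 libraries.

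The log2 ratio of empty vector replicate 2 over replicate 1 was 1.36 for HSPA8, 1.02 for HSPH1, 0.78 for DNAJA1, 0.67 for HSP90AA1, 0.56 for HSPA4 and TCP1, 0.54 for HSPD1 and 0.48 for HSP90AB1. It was also 0.59 for HSPA4L and 0.50 for DNAJB1, and 1.12 for DNAJA4 and 0.62 for HSPB6, both under 1 CPM. The abundant CCT genes other than TCP1 ranged from 0.21 (CCT4) to 0.36 (CCT2), HSPE1 had 0.29 and HSPA9 -0.11. The same ratio was -0.00 for HSPB1, 0.00 for DNAJB4, 0.02 for DNAJB2 and 0.11 for HSPA6, whose controls were nearly equal. The 6 genes with a heat shock element printed or named above had a median ratio of 0.51 and ranged from 0.11 to 1.36, against a median of 0.13 for the other 61 tested genes with a window. Their median log2 fold change with RUNX1::ERG was -0.20 against -0.05. Of the 6, all but HSPA6 had a mean of at least 100 CPM. The 30 chaperone genes of that level had a median control ratio of 0.31 and a median change of -0.21. HSPH1 and DNAJA1, at ratios of 1.02 and 0.78, held no heat shock element in their windows. BAG3, a heat-inducible partner of HSP70 that is not among the 83 genes, had 50.5 and 76.0 CPM in the controls. With the fusion BAG3 had 66.0 and 70.0 CPM, the order of HSPA8. A list of 18 tested heat-inducible genes, most of them in the set, had a median control ratio of 0.52 and a median change of 0.01. The median control ratio was -0.02 over all tested genes and 0.10 over all genes of at least 100 CPM. The list was chosen with earlier results known, and it shares DNAJB6, HSP90AA1, HSPA6, HSPA8 and HSPD1 with the heat shock element genes. The cause of the difference between the control replicates was not tested.

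Leaving out single libraries changed which chaperone genes were called, and the number of calls over all genes changed as well. Each such fit leaves a single library in a group, so the fitted changes are compared here. The log2 fold change ranged from 2.29 to 3.08 for HSPB7 and from 1.18 to 1.52 for DNAJB2. It ranged from 0.81 to 0.93 for HSPA6 and from 0.39 to 0.82 for DNAJC4. Below 0 in every fit were HSPA5 (-0.63 to -0.28), HSPD1 (-0.65 to -0.10), HSP90AB1 (-0.52 to -0.04) and TCP1 (-0.59 to -0.02). HSPA8 (-0.63 to 0.74) and HSP90AA1 (-0.60 to 0.08) changed sign. Without RUNX1::ERG replicate 1, HSPB7 and DNAJB2 lost their calls but kept their direction, and fewer genes were called over all genes too. The role of the ERG level in this was not tested. The HSP90AA1, HSP90AB1, HSPD1 and HSPA8 calls depended on which control library was kept.

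Of 66 tested genes that work with the chaperones without carrying their symbols, 1 rose and 1 fell, in lists chosen with earlier results known. Over all genes 3.64% rose and 1.15% fell. The log2 fold change was below 0 in 45 of the 66 (68.2%) against 50.2% of all genes, with a median of -0.10. At an unadjusted p under 0.05 from edgeR, 3 were higher and 12 lower. That is 4.55% and 18.2% of 66, against 10.7% and 7.26% of all genes. CRYAB, the small heat shock protein alpha-B crystallin, rose from 8.19 and 5.52 normalized CPM to 14.5 and 13.1 CPM, with both fusion libraries above both controls (log2 fold change 1.01, SE 0.25, adjusted p = 0.046, edgeR). It was no longer called without empty vector replicate 2 (0.75, adjusted p = 0.088) or RUNX1::ERG replicate 1 (0.94, adjusted p = 0.21, edgeR). RUVBL1, an AAA ATPase that assembles large complexes together with HSP90, fell from 129 and 144 CPM to 81.3 and 86.7 CPM without overlap (-0.70, SE 0.16, adjusted p = 0.030, edgeR). It was not called without empty vector replicate 2 (-0.62, adjusted p = 0.065) or RUNX1::ERG replicate 1 (-0.66, adjusted p = 0.16, edgeR).

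Of the 25 HSP90 cochaperones, 20 (80%) were below 0 against 50.2% of all genes, with a median of -0.23. In 11 of the 25 (44%) both fusion libraries were below both controls, against 22.1% of all genes. RUVBL1 was the one cochaperone that passed the test but did not have the largest fall. FKBP4, singled out after its values were seen, had -0.75 (SE 0.21, adjusted p = 0.074, edgeR). At an unadjusted p under 0.05 from edgeR, 8 cochaperones were lower (32%) and 1 higher (4%), against 7.26% and 10.7% of all genes. Of the 9 mitochondrial chaperones and proteases 8 were below 0 (median -0.21) and none was called, and of 15 exchange factors and partners of HSP70 9 were below 0 (median -0.07) with none called. The 12 tested prefoldin and CCT helper genes were divided evenly (median 0.02, none called). HSF1, the factor that drives the heat shock response, had 122 and 117 CPM with the empty vector and 134 and 106 CPM with RUNX1::ERG, a log2 fold change of 0.01 (SE 0.17). HSF2 had 29.8 and 29.9 CPM against 27.8 and 29.9 CPM (-0.05, SE 0.17), so neither factor showed a difference beyond its replicates in RNA level.

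The other 9 chaperone genes did not pass the filter and were not tested. DNAJC25-GNG10 and HSPA1L had 0 counts in every library, where 3 counts, the limit that a count of 0 allows, are 0.0364 to 0.0503 CPM. This limit does not show that either gene was silent. HSPA1L lies in the stretch of chromosome 6 with low counts described below, and DNAJC25-GNG10 overlaps the genes DNAJC25 and GNG10. DNAJB8, DNAJC5B, DNAJC5G, HSPA2 and HSPA12A had at most 12 counts in any library. HSPA1A, the best known heat-inducible HSP70, had 2 and 7 counts with the empty vector and 8 in each RUNX1::ERG library, and its twin HSPA1B had 3 and 8 counts against 31 and 6 counts. Their levels are uncertain, because 69.6% of HSPA1A windows and 70.1% of HSPA1B windows are shared with the other gene's transcript, and because 146 of 164 protein-coding genes (89.0%) between 29 and 34 Mb of chromosome 6, where they lie, had a mean under 1 CPM, against 40.1% elsewhere. The cause of these low counts was not tested, and no change of HSPA1A or HSPA1B can be read from them.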

How the data were processed

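The values were deposited as raw counts for each gene in 4 K562 libraries, 2 with the empty vector and 2 with RUNX1::ERG, listed by NCBI gene number and not normalized. Their methods and processing notes name paired-end sequencing of poly(A) RNA, HISAT2 2.2.1, featureCounts 2.0.1 and hg19, but neither the annotation, nor the strand setting, nor the treatment of reads that match several genes. Whether mates were counted singly is not given in the sources used here, and 66.7% to 68.9% of counts from 1 to 10 were even, so counting limits cover counting error only and are too low if mates were counted singly. Nothing in the labels says that replicates came from separate cultures, although the methods call them biological, so p-values measure the spread between these libraries.

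Symbols came from a RefSeq table of GRCh38.p14 (92.2% of genes matched), gene positions and transcript lengths from GENCODE v44 on GRCh37, and upstream windows from RefSeq on GRCh38.p14. Counts were analysed in R 4.3.3 with edgeR 4.0.16 (TMM, filterByExpr, quasi-likelihood test, Benjamini-Hochberg adjustment over 15394 genes, threshold 0.05). The standard error was the log2 fold change divided by the square root of F. An exact permutation test of 2 against 2 cannot give a p below 0.333. Alternatives were DESeq2 1.42.0, limma 3.58.1 voom, other scalings and filters, a replicate block and each library left out, and the procedure was tested on simulated data. The genes of the set and all lists were chosen with earlier results of these data known. Named genes were the called ones, a list of main chaperones, the 5 largest rises and 5 largest falls of at least 10 CPM, the 10 most abundant, and HSF1, HSF2 and called partner genes. Others are said to be chosen after their values were seen. Some neighbouring genes are not reported here.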

Additional observations from a re-analysis of the deposited data

How the results depend on the processing

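HSPB7 and DNAJB2 were called higher under every other scaling, filter and test tried, and were not called without RUNX1::ERG replicate 1. The count of chaperone genes called higher was 2 as reported, 4 with no filter on low counts and 5 with the replicate block, and 0 to 4 with a library left out. The count called lower was 0 as reported, 5 with the replicate block and 0 to 6 with a library left out. With the replicate block, which assumes that equal replicate numbers share a batch, HSPA6, DNAJC4 and DNAJB4 joined the higher genes. HSPA5, HSPD1, HSP90AB1, CCT5 and CCT3 were the lower ones with that block. Calls over all genes rose in these settings as well. The count of all genes called higher was 560 as reported, 962 with no filter and 1082 with the replicate block. The count of all genes called lower was 177, 538 and 651 in the same order. Deviations of same-numbered libraries correlated at 0.37 over all genes, but no label says what a number marks, and there are only 2 of each.

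With libraries left out, the median log2 fold change ranged from -0.16 to 0.013 over all chaperone genes, from -0.38 to 0.13 for DNAJA, from 0.13 to 0.34 for DNAJB, from -0.098 to 0.072 for DNAJC, from -0.24 to 0.46 for the small heat shock proteins from -0.27 to 0.016 for HSPBP1 and HSPBAP1, from -0.32 to 0.024 for HSP70 and HSP110, from -0.52 to -0.040 for HSP90, from -0.52 to -0.10 for HSP60 and HSP10 and from -0.43 to -0.13 for CCT. In the last 4 of these the lowest median came without empty vector replicate 1 or RUNX1::ERG replicate 2, and the highest without empty vector replicate 2. With library totals as the scaling, the DNAJB median was 0.21 and the DNAJC median 0.032, where the median of all genes was 0.038.

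With libraries left out, genes changed sign also at larger fitted values, such as -0.30 for HSP90AA1, 0.24 for CCT6B and 0.21 for HSPB1. Under other scalings, filters and tests, genes with a value near 0 changed sign. DNAJC3 (0.017) and HSPH1 (0.027) did so with library totals, HSPA8 (0.032) and HSPH1 (0.041) with the replicate block, and HSPA8 (0.014) and HSPH1 (0.033) with voom. HSF1 was -0.0057 with DESeq2 size factors, -0.0073 with DESeq2's test, -0.0047 with no filter, -0.0042 with the replicate block and -0.0023 with voom. With libraries left out, the range was -0.63 to 0.74 for HSPA8, -0.45 to 0.58 for HSPH1, -0.46 to 0.33 for DNAJA1, -0.60 to 0.077 for HSP90AA1, -0.42 to 0.14 for HSPA4, -0.13 to 0.37 for DNAJB1, -0.28 to 0.18 for DNAJC3, -0.038 to 0.41 for HSPB1, -0.057 to 0.59 for CCT6B, -0.18 to 0.16 for HSF1 and -0.11 to 0.0042 for HSF2. CRYAB lost its call with library totals (adjusted p = 0.061, edgeR).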
